A study of Homo sapiens with 8 samples.

Results

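The 7 genes described here are the NF-kappaB subunits RELA, RELB, NFKB1 and NFKB2, the inhibitors NFKBIA and NFKBIB, and TNFAIP3. They were chosen by name as subunits and feedback genes of the NF-kappaB pathway, with earlier results of these data known. All 7 were found among the 26902 entries of the table. The cells were U2OS, an established human osteosarcoma line, with a QKI7 overexpression construct or with an empty vector. QKI7 is one of the isoforms of QKI, which binds RNA. Both kinds of cell had been exposed to 0.5 mM sodium arsenite (NaAsO2) for 1 h, so arsenite is common to all libraries and no comparison bears on it. Each construct gave 2 libraries of ribosome footprints, fragments of 17 to 34 nt protected by ribosomes, and 2 libraries of input RNA. The labels state neither whether the cells of a construct were 1 clone nor whether the 2 libraries of a group had cultures of their own. P-values therefore reflect the spread between libraries, possibly technical, and nothing more.

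NF-kappaB is a family of dimeric transcription factors. RELA and RELB carry a domain that activates transcription, whereas NFKB1 and NFKB2 encode the precursors p105 and p100, which are processed to the DNA-binding subunits p50 and p52. In resting cells the inhibitors encoded by NFKBIA (IkappaB-alpha) and NFKBIB (IkappaB-beta) hold dimers in the cytoplasm. The IkappaB kinase complex marks the inhibitors for destruction and the dimers enter the nucleus. NFKBIA and TNFAIP3 are themselves transcribed in response to NF-kappaB, and their products, IkappaB-alpha and the ubiquitin-editing enzyme A20, end the response.

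Values are TPM, a share of all transcripts corrected for length, as the authors deposited them with 2 decimals. Input RNA held 4.23 to 4.51% protein-coding TPM in the QKI7 libraries and 3.72 to 3.99% in the vector libraries. Footprint libraries held 0.611 to 0.617% with QKI7 and 0.627 to 0.630% with vector, since ribosomal RNA filled nearly all the rest. QKI itself measured 1580 to 1749 TPM in the QKI7 inputs and 3.01 to 3.45 TPM in the vector inputs. Replicate libraries correlated at Pearson r of 0.990 to 0.995 across 5806 entries; entries are not independent of one another. How many reads stand behind a value cannot be recovered from TPM. Of 7 mesenchymal markers, 6 averaged at least 1 TPM in the inputs of both constructs, and COL1A2 was near 0. Of 6 osteoblast markers, none reached a mean of 1 TPM in QKI7 inputs and 1, SPP1, did in vector inputs. None of 16 markers of blood, epithelial, neural and endothelial cells reached a group mean of 1 TPM, and the highest value of any of them in 1 library was 0.69 TPM. The sum of the 6 blood and macrophage markers was 0.18 to 0.27 TPM in QKI7 inputs and 0.40 to 0.85 TPM in vector inputs, with PTPRC at no more than 0.02 TPM in any library.

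TNFAIP3, NFKBIA and RELB were lower in QKI7 inputs than in vector inputs, at 0.650, 0.754 and 0.821 of the vector level. These 3 passed the main test, but the number that passed depended on the setting. TNFAIP3 alone fell with a smaller pseudocount (1.4% of entries fell), and all 6 genes tested fell with median-of-ratios scaling (17.3%). With spike-ins, small non-coding RNA and histone genes left out, 0 passed, against 0.546% of genes that fell. NFKBIA footprints stood at 0.529 of the vector level, a difference that missed the threshold of the main test and passed it with a smaller pseudocount. In the inputs RELA, NFKB1 and NFKB2 stood at 0.916, 0.981 and 0.913 of the vector level. RELA and NFKB2 did not pass the main test, which did not include NFKB1. In bulk RNA, fewer cells that express a gene and less of its RNA per cell cannot be told apart.

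Among the subunits, RELA measured 4.75 and 4.25 TPM in the QKI7 inputs and 4.50 and 5.32 TPM in the vector inputs. Its footprints measured 0.12 and 0.21 TPM with QKI7 and 0.16 and 0.21 TPM with vector. The constructs overlapped in both kinds of library. NFKB1 was the least abundant of the 7 genes in inputs, with 1.94 and 1.68 TPM in QKI7 cells and 1.69 and 2.00 TPM in vector cells, and these overlapped too. Its footprints were 0.09 and 0.14 TPM with QKI7 and 0.05 and 0.09 TPM with vector, which met at 0.09 TPM. NFKB2 measured 5.79 and 5.43 TPM in QKI7 inputs and 5.90 and 6.39 TPM in vector inputs. The lower vector library was only just above the higher QKI7 library. NFKB2 footprints, at 0.45 and 0.41 TPM with QKI7 and 0.41 and 0.49 TPM with vector, overlapped.

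RELB is the activating partner of p52 in the noncanonical branch. Its inputs measured 3.60 and 3.70 TPM with QKI7 and 4.43 and 4.46 TPM with vector. Both QKI7 libraries were lower and the groups lay far apart for their spread. Its footprints measured 0.22 and 0.26 TPM with QKI7 and 0.19 and 0.15 TPM with vector, so there both QKI7 libraries were higher. RELB was the only one of the 7 genes with both QKI7 footprint libraries above both vector libraries, a pattern shown by 27% of 7268 protein-coding genes that averaged 1 TPM or more in inputs.

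NFKBIA was the most abundant of the 7 transcripts, with 7.52 and 6.21 TPM in QKI7 inputs and 8.84 and 9.37 TPM in vector inputs. The QKI7 libraries differed from each other by more than the vector libraries did, and both lay below them. NFKBIA footprints measured 0.25 and 0.29 TPM with QKI7 and 0.50 and 0.52 TPM with vector. NFKBIB inputs measured 2.84 and 3.35 TPM with QKI7 and 3.54 and 3.75 TPM with vector, a narrow gap. Its footprints were 0.05 TPM in both QKI7 libraries and 0.19 and 0.09 TPM in the vector libraries. Values this low are near the 2-decimal rounding of the table. TNFAIP3 inputs measured 3.38 and 3.14 TPM with QKI7 and 4.92 and 5.11 TPM with vector. Both QKI7 libraries lay below both vector libraries, with the lowest input ratio of QKI7 to vector of the 7 genes. TNFAIP3 footprints were 0.05 and 0.07 TPM with QKI7 and 0.10 TPM in both vector libraries, again without overlap.

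**Figure D1:**
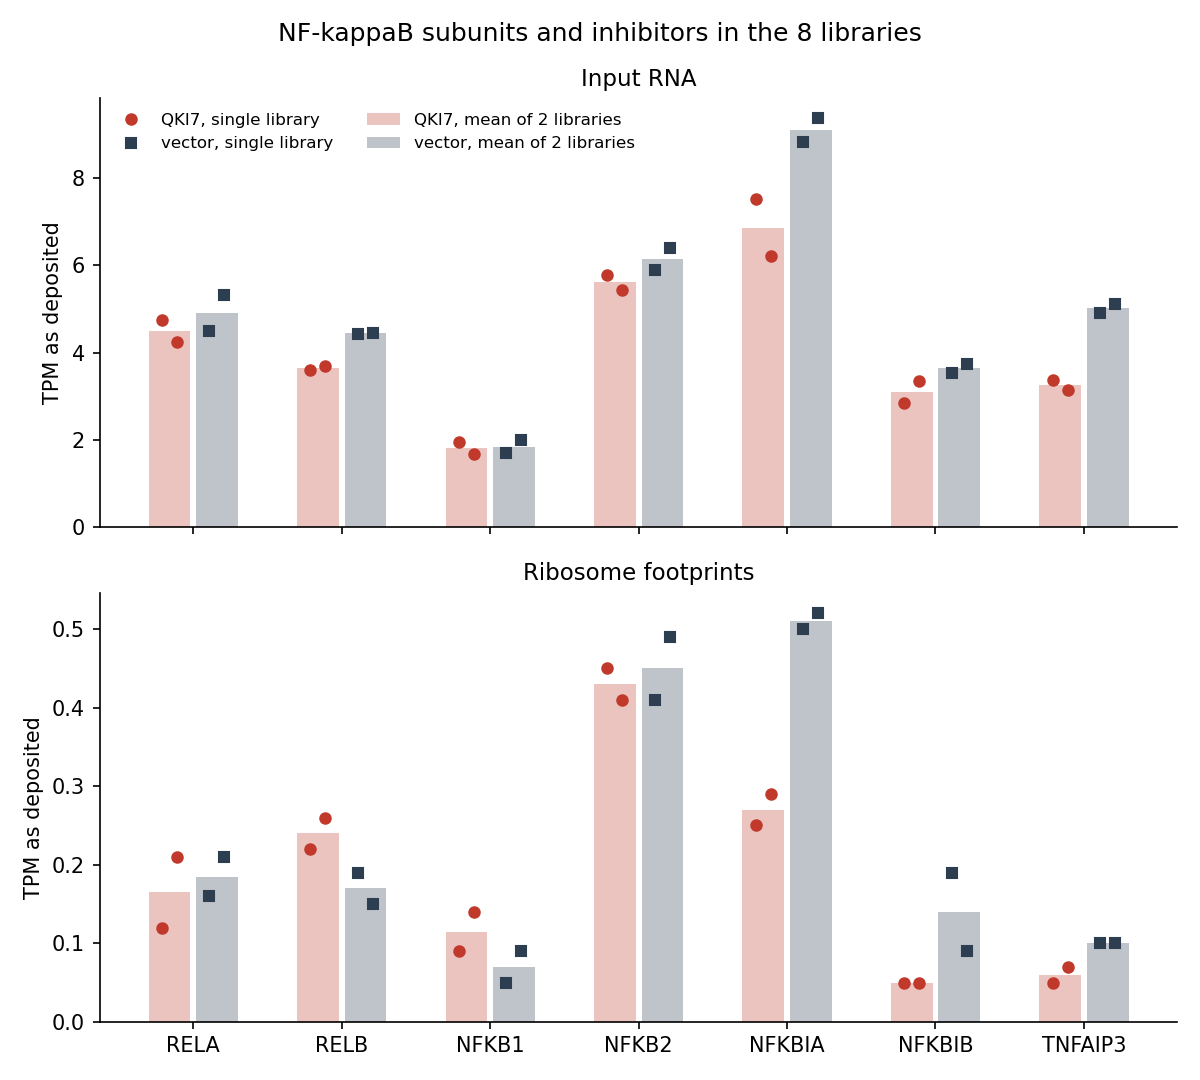
Input RNA (upper panel) and ribosome footprints (lower panel) of the 7 genes in TPM as deposited; circles are single QKI7 libraries, squares are single vector libraries, and bars are means of 2 libraries. In inputs, TNFAIP3 averaged 3.26 TPM with QKI7 and 5.02 TPM with vector; in footprints, NFKBIA averaged 0.270 TPM with QKI7 and 0.510 TPM with vector, and the 2 panels have different scales.

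Without a test, both QKI7 inputs were below both vector inputs for 5 of the 7 genes (RELB, NFKB2, NFKBIA, NFKBIB and TNFAIP3) and above them for 0, against 9.73% of the 7268 protein-coding genes that were below. Among the 5806 entries tested below, 57.8% had both QKI7 inputs above both vector inputs and 11.6% had both below. In footprints both QKI7 libraries were below both vector libraries for 3 genes (NFKBIA, NFKBIB and TNFAIP3), against 20.4% of the protein-coding genes. The ratio of the QKI7 mean to the vector mean was under 1 in inputs for all 7 genes, from 0.650 for TNFAIP3 to 0.981 for NFKB1. In footprints it was under 1 for 5 genes, with RELB at 1.41 and NFKB1 at 1.64. The order of the input levels, from the highest, was NFKBIA, NFKB2, RELA, RELB, TNFAIP3, NFKBIB and NFKB1 in QKI7 cells and NFKBIA, NFKB2, TNFAIP3, RELA, RELB, NFKBIB and NFKB1 in vector cells. TNFAIP3 thus ranked below RELA and RELB in QKI7 inputs and above both in vector inputs. In QKI7 inputs TNFAIP3 and NFKBIB overlapped, and in vector inputs TNFAIP3 and RELA overlapped. In footprints NFKB2 was the highest of the 7 with QKI7 and NFKBIA the highest with vector. The lowest was NFKBIB with QKI7, at 0.05 TPM in both libraries, and NFKB1 with vector, at a mean of 0.0700 TPM. Among the 7268 protein-coding genes the TNFAIP3 input level was at percentile 55.9 with QKI7 and 76.8 with vector. NFKBIA was at 82.2 with QKI7 and 89.9 with vector. All 7 genes had a lower percentile with QKI7. For NFKB1, at 0.981 of the vector level, it was 26.0 with QKI7 and 36.9 with vector. The median input level of the 7268 genes was itself higher with QKI7, at 2.865 TPM against 2.4375 TPM with vector.

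The test was limma on log2(TPM + 1), which understates changes of low values, over the 5806 entries that averaged 1 TPM or more in the 8 libraries, with Benjamini-Hochberg adjustment and a threshold of 0.05. NFKB1, with a mean of 0.96 TPM, was not among the entries tested, so 6 genes were. The fit gave each entry 1 variance pooled over inputs and footprints, so its SE is the same for the input and the footprint difference. Footprints of the 6 genes, all under 1 TPM, spread little on this scale, which can make the SE of input differences too small. In inputs, 3 of these 6 fell with QKI7 and 0 rose, against 5.48% of all entries tested that fell and 39.1% that rose. The median difference of all entries was 0.15 on the log2(TPM + 1) scale, while that of the 6 genes was -0.21. TNFAIP3 inputs fell by 0.50 (SE 0.053, limma adjusted p = 0.00119). NFKBIA inputs fell by 0.37 (SE 0.083, limma adjusted p = 0.00981). RELB inputs fell by 0.23 (SE 0.051, limma adjusted p = 0.00951). Relative to the median entry the differences were -0.65 for TNFAIP3, -0.52 for NFKBIA and -0.38 for RELB. The share of protein-coding TPM, which was higher in QKI7 inputs, moved the other way, and its part in these differences was not tested. NFKBIB at -0.18, NFKB2 at -0.11 and RELA at -0.10 did not pass the test, with limma adjusted p of 0.0759, 0.186 and 0.347.

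All 6 input differences were negative under every setting tried, but the number that passed depended on the setting. With median-of-ratios scaling, which removes the upward shift of the median entry, all 6 fell, against 17.3% of entries. With a pseudocount of 0.1 in place of 1, TNFAIP3 alone of the 6 fell (-0.61, limma adjusted p = 0.0360), against 1.4% of entries. On a scale without the spike-ins, small non-coding RNA and histone genes, called the mRNA scale here, which also widens the test to 16677 genes, 0 of the 7 genes passed, against 0.546% of genes that fell. There the log2 differences were -0.81 for TNFAIP3, -0.60 for NFKBIA and -0.47 for RELB, with limma adjusted p of 0.209, 0.129 and 0.580.

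In footprints 0 of the 6 genes passed the limma test, against 8.2% of all entries in either direction, and 1 of the 6, NFKBIA, had an unadjusted p under 0.05. The NFKBIA difference was -0.25 (SE 0.083, limma adjusted p = 0.131). With a pseudocount of 0.1, which weighs less on values under 1 TPM, NFKBIA footprints fell by 0.72 (limma adjusted p = 0.0105), against 7.7% of entries that fell. On the mRNA scale they fell by 0.88 (limma adjusted p = 0.00867), against 3.98% of genes. The other 5 genes had footprint differences between -0.12 for NFKBIB and 0.08 for RELB, none past the threshold at either pseudocount.

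**Figure D2:**
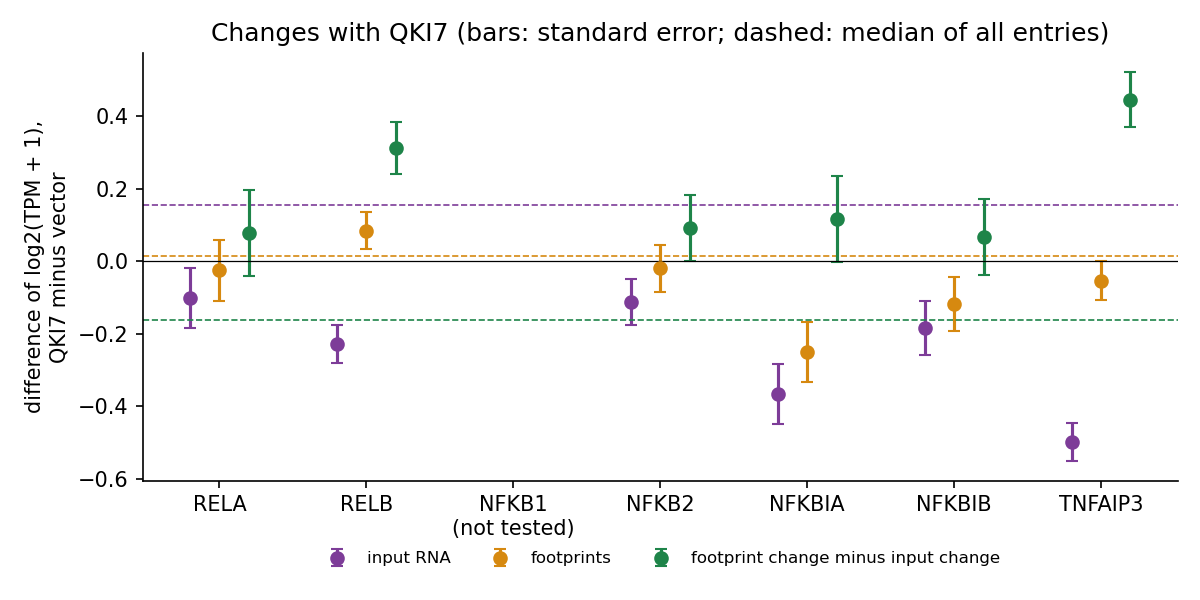
Difference of log2(TPM + 1), QKI7 minus vector, for input RNA, footprints and the footprint change minus the input change, with standard errors from the limma fit; dashed lines are medians of the 5806 entries. Input differences lie below 0 for the 6 genes tested, from -0.10 for RELA to -0.50 for TNFAIP3, and the footprint change minus the input change is 0.44 for TNFAIP3 and 0.31 for RELB; with a pseudocount of 0.1 neither passed, and NFKBIA (-0.32) and NFKBIB (-0.41) changed sign.

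The plain footprint-to-input ratio is the mean footprint TPM over the mean input TPM, a share of 1 kind of library over a share of the other. The 2 kinds of library differ in make-up, so a ratio is not the part of a transcript protected by ribosomes. It is read beside the ratios of other genes. Its median over the 7268 protein-coding genes was 4.03% in QKI7 cells and 4.14% in vector cells, with the middle 50% of genes between 2.11 and 8.99% with QKI7 and between 1.87 and 10.5% with vector. NFKB2 had the highest ratio of the 7 genes in both constructs, at 7.66% with QKI7 and 7.32% with vector. TNFAIP3 was low in both, at 1.84% with QKI7 (1.48 to 2.23% over the 4 pairings of a footprint with an input library) and 1.99% with vector (1.96 to 2.03%). These placed TNFAIP3 at percentile 20.5 with QKI7 and 26.7 with vector among protein-coding genes. RELA, at 3.67% with QKI7 and 3.77% with vector, was close to the median gene.

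For RELB the ratio was 6.58% with QKI7 (5.95 to 7.22%) and 3.82% with vector (3.36 to 4.29%), and the pairings did not overlap. NFKB1 had 6.35% with QKI7 (4.64 to 8.33%) and 3.79% with vector (2.50 to 5.33%), and those overlapped. For NFKBIA the ratio was 3.93% with QKI7 (3.32 to 4.67%) and 5.60% with vector (5.34 to 5.88%). For NFKBIB it was 1.62% with QKI7 (1.49 to 1.76%) and 3.84% with vector (2.40 to 5.37%). The 2 IkappaB genes thus had lower ratios in QKI7 cells in all pairings, as did 22.9% of the 7268 genes, and RELB a higher one, as did 17.5%. The QKI7 ratio over the vector ratio was 1.72 for RELB, 1.67 for NFKB1, 1.05 for NFKB2, 0.973 for RELA, 0.923 for TNFAIP3, 0.702 for NFKBIA and 0.421 for NFKBIB. For the median gene it was 0.940, and 90% of genes lay between 0.467 and 2.26. The NFKBIB value rests on 1 library: without vector footprint library 1 it was 0.654, inside that range.

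**Figure D3:**
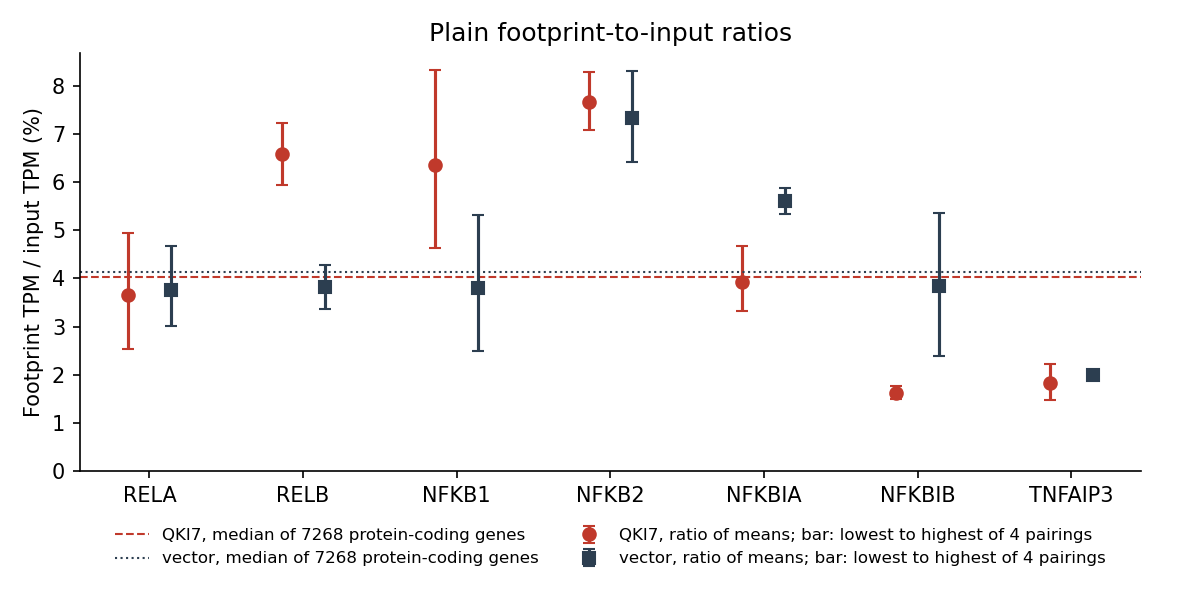
Footprint TPM as a percentage of input TPM for the 7 genes; points are ratios of the group means, bars run from the lowest to the highest of the 4 pairings, and horizontal lines are medians of 7268 protein-coding genes. RELB stands at 6.58% with QKI7 and 3.82% with vector, NFKBIA at 3.93% and 5.60%, and TNFAIP3 lies under both medians.

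Translation efficiency was tested as the footprint difference between constructs minus the input difference, in the same limma fit. TNFAIP3 (0.44, SE 0.075, limma adjusted p = 0.0109) and RELB (0.31, SE 0.073, limma adjusted p = 0.0233) rose, which makes 2 of 6 genes, against 3.57% of all entries that rose and 21.6% that fell. NFKBIA at 0.12, NFKB2 at 0.09, RELA at 0.08 and NFKBIB at 0.07 did not pass. For TNFAIP3 the call goes with the scale. Its footprints, at no more than 0.10 TPM, are small beside the pseudocount of 1. With a pseudocount of 0.1 the value was 0.28 (limma adjusted p = 0.315), on the mRNA scale it was 0.14 (limma adjusted p = 0.845), and the plain ratio was 0.923 of that in vector cells, with overlapping pairings. Over all alternatives the limma adjusted p of TNFAIP3 ran from 0.00352 to 0.965. For RELB the value was 0.61 with a pseudocount of 0.1 (limma adjusted p = 0.0890) and 0.98 on the mRNA scale (limma adjusted p = 0.104). Its adjusted p ran from 0.0122 to 0.108 over the alternatives, all with the same sign. The RELB call was lost when QKI7 input library 1 was left out (0.30, limma adjusted p = 0.0558), and when any 1 of the 4 footprint libraries was: QKI7 footprint library 1 (0.33, limma adjusted p = 0.0686) or 2 (0.29, limma adjusted p = 0.0870), or vector footprint library 1 (0.34, limma adjusted p = 0.0687) or 2 (0.29, limma adjusted p = 0.0930). The signs for NFKBIA and NFKBIB turned at a pseudocount of 0.1, at -0.32 and -0.41, neither past the threshold.

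Footprint against input was compared within each construct on the mRNA scale, where a gene is set against the other entries kept. That scale keeps 24304 entries, 18718 of them protein-coding. All 7 genes were lower in footprints than in inputs in QKI7 cells, against 58.6% of 16677 genes, and in vector cells, against 60.3%. The median difference of all genes was -1.51 on the log2 scale in QKI7 cells and -1.60 in vector cells. TNFAIP3 was among the lowest of the 7, at -2.86 in QKI7 cells (limma adjusted p = 3.07e-05) and -3.00 in vector cells (limma adjusted p = 2.11e-05). NFKB2 was the nearest to 0, at -0.91 in QKI7 cells and -1.20 in vector cells. In QKI7 cells NFKB1 was at -1.18, a call lost without QKI7 input library 1 (limma adjusted p = 0.0831) or 2 (0.0651) or QKI7 footprint library 1 (0.0693). When median-of-ratios scaling put the libraries on a common centre, 3 genes stayed lower in QKI7 cells (NFKBIA, NFKBIB and TNFAIP3, against 31.1% of genes) and NFKB2 was higher (0.36, limma adjusted p = 0.0379, against 21.4%). In vector cells 3 were then lower (RELA, RELB and TNFAIP3, against 34.3%). TNFAIP3 passed as lower in both constructs under both scalings.

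The upstream sequence of NFKBIA and TNFAIP3 is shown because both are known NF-kappaB targets and had the lowest QKI7 input levels relative to vector, and that of NFKB1, also a known target, because its inputs overlapped. The RefSeq promoter table of GRCh38.p14 held windows for 6 of the 7 genes, RELA, NFKB1, NFKB2, NFKBIA, NFKBIB and TNFAIP3. The 250 bases before the start site of NFKBIA are on the minus strand at chr14:35404750-35404999. Those of NFKB1 are on the plus strand at chr4:102501109-102501358. The TNFAIP3 window is on the plus strand at chr6:137867009-137867258, and it ends 910 bases inside the annotated gene, so it lies upstream of an internal start site. Capitals mark matches to the degenerate kappaB consensus on either strand, and each line reads 5′ to 3′ toward the gene.
NFKBIA: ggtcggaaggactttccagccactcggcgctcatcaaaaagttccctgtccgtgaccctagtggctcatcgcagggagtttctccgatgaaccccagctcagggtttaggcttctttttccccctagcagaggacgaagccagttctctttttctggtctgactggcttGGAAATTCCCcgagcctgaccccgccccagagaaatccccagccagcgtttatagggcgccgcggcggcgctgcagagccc
TNFAIP3: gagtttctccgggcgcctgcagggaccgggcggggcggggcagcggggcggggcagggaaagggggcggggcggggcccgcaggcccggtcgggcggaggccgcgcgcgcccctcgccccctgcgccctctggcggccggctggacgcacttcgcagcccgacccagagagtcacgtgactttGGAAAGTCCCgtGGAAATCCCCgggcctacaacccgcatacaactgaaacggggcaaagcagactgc
NFKB1: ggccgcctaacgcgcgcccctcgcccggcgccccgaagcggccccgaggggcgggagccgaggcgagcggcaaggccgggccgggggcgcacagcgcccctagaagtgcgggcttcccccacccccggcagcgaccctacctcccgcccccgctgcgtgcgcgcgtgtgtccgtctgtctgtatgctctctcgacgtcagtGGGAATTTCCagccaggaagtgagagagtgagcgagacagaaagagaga
The NFKBIA match begins 81 bases before the start site, the pair in TNFAIP3 67 and 55 bases before it, and the NFKB1 match 49 bases before it. Across the 11 windows of the 6 genes, 6 windows of 5 genes held the consensus, against 5.21% of 35116 windows of the same length in the table. A match is a description of the letters in the window, and these data hold no measure of binding there.

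In the same annotation TNFAIP3 (gene ID 7128) spans chr6:137866349-137883312 and NFKBIA (gene ID 4792) spans chr14:35401513-35404749. RELB (gene ID 5971) spans chr19:45001464-45038192 and NFKBIB (gene ID 4793) spans chr19:38899666-38908889. RELA (gene ID 5970) spans chr11:65653601-65663857, NFKB1 (gene ID 4790) chr4:102501359-102617302 and NFKB2 (gene ID 4791) chr10:102394110-102402529. Some of the genes overlap long non-coding RNAs of the annotation, among them WAKMAR2 at TNFAIP3 and NFKB1-AS1 at NFKB1. Strand use in the authors' read assignment is not stated in the labels, so reads of such partners cannot be told apart from those of the gene.

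The 7 genes were then set beside 76 other genes of the pathway, of which 75 were in the table and 33 were tested. TNF was not analysed here. In inputs 10 of these 33 rose with QKI7 and 2 fell, against 39.1% of all entries tested that rose and 5.48% that fell, so the share that rose was no higher than among all entries. Of 9 adaptors and ubiquitin ligases tested, 4 rose and 0 fell, with a list median of 0.22 (0.15 over all entries), a share near that of all entries. The 4 were BIRC2, an E3 ligase of the TNF receptor complex (0.31, limma adjusted p = 0.0122), SHARPIN, a subunit of the linear ubiquitin assembly complex (0.25, limma adjusted p = 0.0193), the interleukin-1 receptor-associated kinase IRAK1 (0.23, limma adjusted p = 0.0247) and TRAF5 (0.22, limma adjusted p = 0.0200). Of 6 kinases tested, 3 rose and 0 fell, again near the share of all entries, with a list median of 0.18. These were RIPK1 (0.33, limma adjusted p = 0.00892), MAP3K14, the NIK kinase of the noncanonical branch (0.27, limma adjusted p = 0.00711), and TBK1 (0.23, limma adjusted p = 0.0309). The receptor TNFRSF1A was the only one of 3 receptors tested that rose (0.27, limma adjusted p = 0.00668). Among 8 other inhibitors tested, OTULIN, a deubiquitinase for linear chains, rose (0.33, limma adjusted p = 0.00396) and 0 fell, with a list median of 0.08, below that of all entries.

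Of 7 target genes tested in inputs, IER3 rose (0.29, limma adjusted p = 0.0416), and PTX3, a secreted pattern recognition protein (-0.37, limma adjusted p = 0.00785), and GADD45B (-0.23, limma adjusted p = 0.0175) fell. Over all entries tested 39.1% rose and 5.48% fell. The median of the target list was 0.08, against 0.15 over all entries. The remaining subunit, REL, averaged 1.19 TPM in QKI7 inputs and 0.880 TPM in vector inputs and was not tested. The count of pathway genes that rose depends on the scaling, since the median entry moved up too. With median-of-ratios scaling 2 of the 33 rose and 6 fell, against 18.3% of all entries that rose and 17.3% that fell. With a pseudocount of 0.1, 0 rose and 1, PTX3, fell, against 5.06% and 1.4% of all entries. The lists are set beside the 7 genes by their medians and counts alone, and the difference between lists was not tested.

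**Figure D4:**
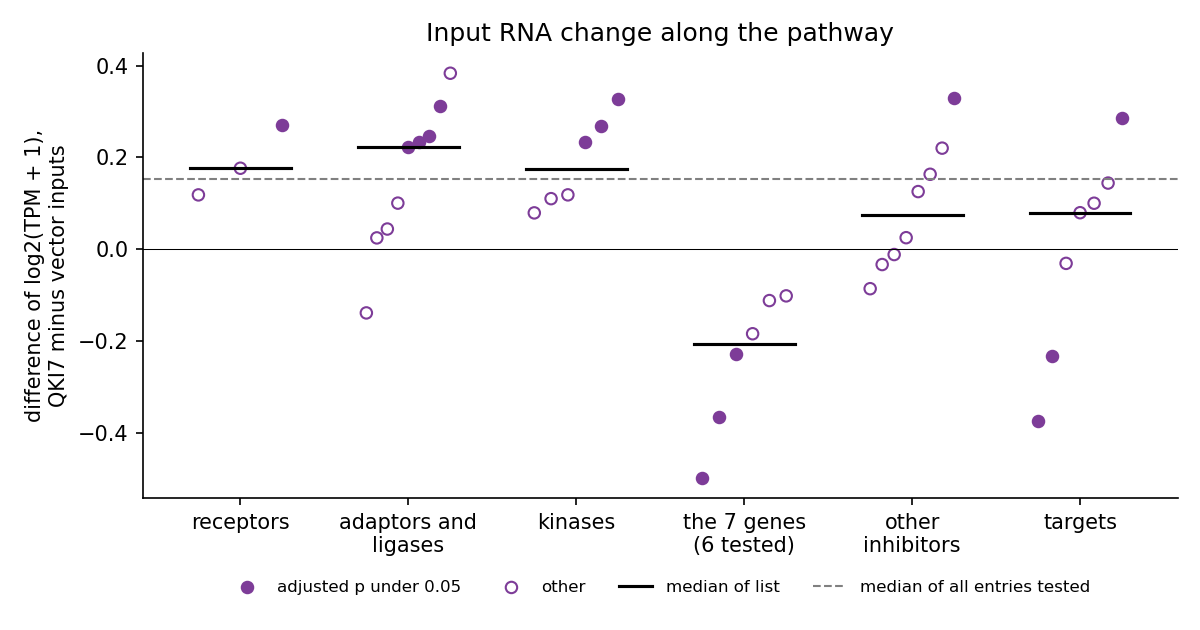
Input difference of log2(TPM + 1), QKI7 minus vector, for each tested gene of 6 groups of the pathway; filled circles passed the limma test, horizontal bars are group medians and the dashed line is the median of all 5806 entries. The 7 genes (6 tested) have a median of -0.21, against 0.22 for adaptors and ligases and 0.18 for kinases.

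In footprints 2 of the 33 rose and 1 fell, near the 3.6% of all entries that rose and the 4.6% that fell. IRAK1 footprints averaged 0.900 TPM with QKI7 and 0.365 TPM with vector (0.48, limma adjusted p = 0.00433). Those of CCL2, a chemokine, averaged 3.06 TPM with QKI7 and 2.04 TPM with vector (0.41, limma adjusted p = 0.0222). PTX3 footprints averaged 1.58 TPM with QKI7 and 3.20 TPM with vector (-0.71, limma adjusted p = 0.00196), so PTX3 was lower in both kinds of library. For translation efficiency, 4 of the 33 fell and 0 rose, against 21.6% of all entries that fell and 3.57% that rose. They were the receptors TNFRSF12A (-0.43, limma adjusted p = 0.0471) and TNFRSF1A (-0.31, limma adjusted p = 0.0277), OTULIN (-0.32, limma adjusted p = 0.0291) and MAP3K14 (-0.26, limma adjusted p = 0.0461). Footprints of OTULIN and MAP3K14 were at most 0.09 TPM in any library, small beside the pseudocount of 1, so their values are close to the input differences of 0.33 and 0.27 with the sign turned. With a pseudocount of 0.1, 0 of the 33 fell and 1, IRAK1, rose, against 1.95% and 1.79% of all entries.

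Genes whose pattern was most like that of TNFAIP3, NFKBIA and RELB were found by Pearson r of log2(TPM + 1), centred within inputs and within footprints, over 8 libraries and among 5102 protein-coding genes. The r is a description, since the libraries fall into the same groups for every gene. TNFAIP3 footprints, at no more than 0.10 TPM, hardly vary on this scale, so its r rests mainly on the input libraries. For TNFAIP3 the nearest were SYNE1 (0.989), ITGA5 (0.987) and UQCR10 (0.985). For NFKBIA they were SP100 (0.988) and the ribosomal protein genes RPLP2 (0.980) and RPL31 (0.979). For RELB they were HELZ2 (0.984), FTH1 (0.975) and UBE2S (0.962). HELZ2 averaged 10.3 TPM in QKI7 inputs and 13.6 TPM in vector inputs, and 0.280 TPM in QKI7 footprints and 0.135 TPM in vector footprints. Like RELB, it was thus lower in inputs and higher in footprints, as were FTH1 and UBE2S by their means. These genes were picked for their likeness to RELB, so the shared pattern is no separate result.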

How the data were processed

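The authors deposited 1 table of TPM rounded to 2 decimals. STAR, RSEM 1.2.31 and GRCh38 stand in the submitters' processing notes, without settings. All columns belonged to the 8 samples. Groups came from the sample labels. Deposited TPM were converted to log2(TPM + 1) and tested with limma-trend (limma 3.58.1, R 4.3.3) over entries that averaged 1 TPM or more, with 4 group means and 4 residual degrees of freedom; p-values are two-sided, adjusted over all entries tested. For 2 against 2 libraries the smallest p of an exact permutation test is 0.333. The mRNA scale leaves out 2598 entries and rescales the other 24304 to equal sums; plain ratios use TPM as deposited. Entries were matched to RefSeq by symbol (23970) or older symbol (1395), and 1537 had no match. The fit was tested on simulated data. All 7 genes are named; of the other pathway lists, up to 4 genes per list and contrast with the greatest change past the threshold; and the 3 genes of highest r. The genes and lists were chosen with earlier results of these data known. Alternatives were the pseudocount, the filter on low values, scaling, quantile normalization, the mRNA scale and its narrower version (input mean of 1 TPM or more, footprint mean of 0.2 TPM or more), a replicate block and leaving out each library.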

Additional observations from a re-analysis of the deposited data

Results flagged for a closer look

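For 2 genes the limma test of the footprint difference minus the input difference passed at a pseudocount of 1, and neither passed at a pseudocount of 0.1 or on the mRNA scale. For RELB the footprint difference minus the input difference was 0.31 on the log2(TPM + 1) scale (limma adjusted p = 0.0233), with both QKI7 libraries higher than both vector libraries in footprints and lower in inputs. For TNFAIP3 it was 0.44 (limma adjusted p = 0.0109), with both QKI7 libraries lower than both vector libraries in footprints and in inputs. TNFAIP3 footprints, at no more than 0.10 TPM, are small beside the pseudocount, and its level with QKI7 was 0.600 of that with vector in footprints and 0.650 in inputs. At a pseudocount of 0.1 the TNFAIP3 value was 0.28 (limma adjusted p = 0.315) and the RELB value 0.61 (limma adjusted p = 0.0890). On the mRNA scale the TNFAIP3 value was 0.14 (limma adjusted p = 0.845) and the RELB value 0.98 (limma adjusted p = 0.104). The plain ratio with QKI7 was 1.72 times that with vector for RELB and 0.923 times for TNFAIP3. No rule for a library standing apart within its group was applied, because groups hold 2 libraries. Each library was left out in turn instead, as given below.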

How the results depend on the processing

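Of the 6 genes tested, 3 were called in inputs, 0 in footprints and 2 for translation efficiency, and 7 of 7 for footprint against input in each construct. With a pseudocount of 0.1 the counts were 1, 1 and 0. On the mRNA scale they were 0, 1 and 0. Its narrower version, which tests 3 of the genes, gave 1, 1 and 1: NFKBIA, NFKBIA and RELB. Median-of-ratios scaling and quantile normalization each gave 6, 1 and 3, with NFKB2 gained for translation efficiency (0.24 and 0.25). The mRNA scale with median-of-ratios scaling, chosen after seeing the data, gave 0, 3 and 0, and in the narrower version 1, 1 and 1. For footprint against input, the narrower version called 3 in each construct, and median-of-ratios scaling called 4 in QKI7 cells and 3 in vector cells, with signs turned in QKI7 cells for RELB (0.14), NFKB1 (0.061) and NFKB2 (0.36) and in vector cells for NFKB2 (0.16). Signs for translation efficiency turned with a pseudocount of 0.1 for RELA (-4.1e-05), NFKBIA (-0.32) and NFKBIB (-0.41), on the mRNA scale for NFKBIA (-0.28, also in the narrower version) and NFKBIB (-0.83), and with both mRNA scale and median-of-ratios scaling for NFKBIA (-0.37) and NFKBIB (-0.95). The QKI7 ratio over the vector ratio on the mRNA scale was 1.13 for RELA, 2.00 for RELB, 1.95 for NFKB1, 1.22 for NFKB2, 0.818 for NFKBIA, 0.487 for NFKBIB and 1.07 for TNFAIP3. As deposited, RELA and TNFAIP3 were under 1, at 0.973 and 0.923, and the median gene was at 0.940. The mRNA scale multiplies all values kept in a library by 1 factor, and the ratios of all 7 genes were higher on it. The crossing of 1 by RELA and TNFAIP3 is thus a property of the scale and not of these genes. Leaving out 1 library at a time gave 3 to 4 genes called in inputs, 0 to 0 in footprints, 1 to 2 for translation efficiency, and 6 to 7 (QKI7) and 7 to 7 (vector) for footprint against input. TNFAIP3, NFKBIA and RELB stayed called in inputs in 8 of 8 such fits. For translation efficiency, TNFAIP3 stayed called in 8 of 8 and RELB in 3 of 8 (adjusted p 0.0277 to 0.0930). The QKI7 ratio over the vector ratio, with each library left out after seeing the data, was 0.708 to 1.24 for RELA, 1.54 to 1.95 for RELB, 1.3 to 2.34 for NFKB1, 0.961 to 1.15 for NFKB2, 0.641 to 0.776 for NFKBIA, 0.310 to 0.654 for NFKBIB and 0.769 to 1.08 for TNFAIP3. Values that crossed 0 among these fits were the footprint differences of RELA (-0.081 to 0.030) and NFKB2 (-0.059 to 0.020) and the translation efficiency of RELA (-0.024 to 0.18), NFKBIA (-0.0042 to 0.24) and NFKBIB (-0.023 to 0.16). Same-numbered libraries did not clearly deviate together (r of -0.088 between inputs, 0.060 between footprints, 0.125 between QKI7 footprints and inputs and 0.0083 between vector footprints and inputs). A replicate block gave the same 3, 0 and 2, and 7 and 7, and changed no call. Over all entries, inputs had 2269 higher and 318 lower calls, against 294 and 81 with a pseudocount of 0.1, 1062 and 1007 with median-of-ratios scaling, and 8 and 91 on the mRNA scale. TPM keeps no depth, so counting error in the low footprint values is unknown.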

Other observations

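CXCL8, the neutrophil chemokine interleukin-8 and a known NF-kappaB target, was singled out after its values were seen. It had 0.41 and 0.26 TPM in QKI7 inputs and 0.85 and 1.12 TPM in vector inputs. CXCL8 footprints were 0.35 and 0.24 TPM with QKI7 and 1.55 and 1.48 TPM with vector, so the groups did not overlap in either kind of library. Both QKI7 libraries were below both vector libraries for 9.73% of the 7268 more abundant protein-coding genes in inputs and for 20.4% in footprints. Other targets went either way in footprints: both QKI7 libraries were above both vector libraries for CCL2 and below them for PTX3. Its mean over the 8 libraries was under 1 TPM, and it was not tested.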
